A study of Homo sapiens with 12 samples.

Results

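A set of 9 Wnt pathway genes was followed through 12 arrays of RD cells, a line from an embryonal rhabdomyosarcoma, a soft tissue tumour of the muscle lineage. They were taken by name: the ligand WNT5A, the receptors FZD2, FZD6 and FZD7, the R-spondin receptor LGR5, the secreted inhibitors DKK1 and SFRP1, and the effectors CTNNB1 and TCF7L2. These are 9 of the 11963 genes, and 19 of the 19065 probe sets, to which the annotation of the Affymetrix U133A array gives 1 symbol. For each gene the probe set of highest mean signal stands for it, and its other probe sets are given beside it. Of the 19 probe sets 18 were bright enough to be tested, at least 1 for each gene; the dim one belongs to SFRP1.

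The study asked what the PAX3-FKHR fusion, a transcription factor of alveolar rhabdomyosarcoma, does to gene expression. RD cells had been transduced with PAX3-FKHR-ER or with pK1, the vector alone. The suffix ER stands for the ligand binding domain of an altered estrogen receptor, which lets 4-hydroxytamoxifen (4-OHT) switch the fusion on. Each was grown without 4-OHT or with 30 nM 4-OHT for 24 h, with 3 arrays in each of the 4 groups. Below, "fusion cells" are those labelled PAX3-FKHR-ER and "vector cells" those labelled pK1. RD cells carry none of the alveolar tumour's own fusion, so the construct is an added copy in the embryonal form, and all groups share that background. Replicate numbers come from the labels, and a pair means the arrays with and without 4-OHT that share a construct and a number. Nothing in the labels ties a number to a separate culture, so p-values measure the spread between these samples.

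Wnt ligands are secreted proteins that bind Frizzled receptors. In the canonical branch this keeps beta-catenin from being broken down, and beta-catenin then acts on genes through TCF/LEF proteins on DNA; in other branches, the ones WNT5A is best known for, it acts on cell movement and polarity through small GTPases and calcium. Dickkopf proteins block the co-receptors and SFRPs hold Wnt ligands away from Frizzleds, while LGR5 binds R-spondins and so prolongs Frizzled signalling. In the embryo Wnt signals help to start the myogenic programme in the somites, where PAX3 also acts.

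The 250 bases before the annotated starts of 3 of these genes are printed because the data below bear on them: WNT5A was lower and TCF7L2 higher with 4-OHT in the same pairs, and DKK1, a classical beta-catenin target, was level there. They come from RefSeq on GRCh38.p14, read 5′ to 3′ on the strand of the gene, and capitals mark matches on either strand to ATTA (the core that a PAX3 homeodomain reads), GTCAC (a core of paired-domain sites) and CTTTGA or CTTTGT (TCF/LEF). WNT5A has entries at chr3:55487307-55487556 and chr3:55481399-55481648 (minus strand), TCF7L2 is shown at chr10:112949997-112950246 and DKK1 at chr10:52314031-52314280 (both plus strand).
WNT5A, first entry: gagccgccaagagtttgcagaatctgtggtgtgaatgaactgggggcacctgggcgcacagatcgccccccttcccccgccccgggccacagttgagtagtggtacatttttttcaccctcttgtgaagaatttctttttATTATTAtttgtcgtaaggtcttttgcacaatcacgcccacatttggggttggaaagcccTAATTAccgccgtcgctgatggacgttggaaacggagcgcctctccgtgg
WNT5A, second entry: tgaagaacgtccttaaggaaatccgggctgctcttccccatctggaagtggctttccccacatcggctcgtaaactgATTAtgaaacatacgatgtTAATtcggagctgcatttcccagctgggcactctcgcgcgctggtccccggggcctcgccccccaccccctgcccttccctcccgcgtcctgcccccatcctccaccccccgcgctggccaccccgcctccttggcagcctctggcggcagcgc
TCF7L2, first entry: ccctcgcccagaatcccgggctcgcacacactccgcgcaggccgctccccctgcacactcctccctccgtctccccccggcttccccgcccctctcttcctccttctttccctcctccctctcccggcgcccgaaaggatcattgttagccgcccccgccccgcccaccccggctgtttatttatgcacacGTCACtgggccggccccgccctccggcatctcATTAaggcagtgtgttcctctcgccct
DKK1: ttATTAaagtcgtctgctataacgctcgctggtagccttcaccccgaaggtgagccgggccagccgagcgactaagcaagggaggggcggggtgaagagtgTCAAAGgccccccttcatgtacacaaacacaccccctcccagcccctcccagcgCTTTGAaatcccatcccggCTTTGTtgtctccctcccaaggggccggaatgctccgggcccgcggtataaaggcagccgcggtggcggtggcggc

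In the first WNT5A window 4 ATTA matches lay 48 to 110 bases before the start, 2 of them overlapping on opposite strands as TAATTA and 2 following each other as ATTATTA. The second window held 2, at 173 and 154 bases. TCF7L2 had 1 ATTA 27 bases and 1 GTCAC 59 bases before its start in the window shown; of its other entries, 1 held 3 ATTA and 1 CTTTGT, and the last held 3 GTCAC. DKK1 held 1 ATTA, 2 CTTTGA (149 and 95 bases) and 1 CTTTGT (76 bases). Among all 35116 windows of that length, 47.4% held an ATTA, 37.3% a GTCAC, 11.2% a CTTTGA and 13.7% a CTTTGT, and 22.8% held either TCF/LEF form. Windows were searched for 4 members, with 7 entries, and the CTNNB1 window held 1 GTCAC. FZD2, FZD7 and LGR5 had no entry in the promoter table, and FZD6 and SFRP1 were not searched here. These are matches of letters, and no binding was measured.

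The arrays of replicate 1 stood apart from the rest. Their 24 poly-A spike-in probe sets had medians of 2.58 to 7.41, against 118 to 291 on the other 8 arrays. Over all tested probe sets they correlated at 0.957 to 0.982 with each other and at 0.815 to 0.869 with the rest. PAX3 and FOXO1 (the gene also called FKHR), the genes joined in the construct, read 98.9 and 105, and 146 and 124, in replicates 2 and 3 of the fusion cells without 4-OHT, against 41.5 and 30.6, and 52.1 and 36.1, in the vector cells. In replicate 1 the order was turned, at 17.6 against 49.4 for PAX3 and 142 against 214 for FOXO1, and with 4-OHT the constructs read alike there (58.9 and 57.8, and 138 and 121). Native PAX3 and FOXO1 transcripts could be read by them too. Arrays keep their labels as names here, and signals are given for all 3 replicates. Exchanged labels and separate handling of the replicate 1 arrays were not tested, and they cannot be told apart here.

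Muscle lineage markers, though not all of them, were read on all arrays. The 8 muscle lineage markers summed to 3231 to 5577 in fusion cells without and 3475 to 4953 with 4-OHT, and to 913 to 3779 and 764 to 4568 in vector cells, where replicate 2 was lowest. CHRNA1 and MYOD1 held most of that, while MYF5 and PAX7 read at most 15.55 and 16.3 on any array and were not tested. The 6 epithelial markers summed to 817 to 1023 without and 1056 to 1295 with 4-OHT in fusion cells, and to 719.8 to 1389 and 816 to 1935 in vector cells. KRT18 held most of that, at 645 to 1868, with KRT8 at up to 78.5, while EPCAM, CDH1 and KRT19 read at most 26.9 on any array. On the vector array of replicate 2 with 4-OHT the epithelial sum, 816, lay above the muscle sum, 764. For the 5 endothelial markers the sums were 43.6 to 189 and 114 to 244 in fusion cells and 87.3 to 139 and 119 to 158 in vector cells, with TEK at up to 144, PECAM1 at up to 84.3, VWF at up to 55.8 and CDH5 at no more than 4.03. The 5 blood markers summed to 218 to 358 and 155 to 361 in fusion cells and to 139.8 to 329 and 208 to 334 in vector cells; CD53 was at 53.0 to 229, HCLS1, LCP1 and CORO1A at up to 72.9, 62.3 and 55.9, and PTPRC, the defining one, at no more than 23.5. The part of these markers in the results below was not tested.

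Tests came from 2 fits in limma. The fit to 12 arrays called 0 of 13329 probe sets (0%) at an adjusted p under 0.05 in each of the 5 comparisons, with 62 at an unadjusted p under 0.05 for 4-OHT in fusion cells, 72 for 4-OHT in vector cells, 39 for the difference of those changes, and 277 and 267 for the constructs without and with 4-OHT. Every member had an adjusted p of 1 there. With the pairs as a block it again called 0, with 894, 916, 634, 981 and 931 in the same order. The second fit kept replicates 2 and 3 and used their pairs as a block; it was chosen in view of the data, once replicate 1 was seen to stand apart. It called 186 probe sets for 4-OHT in fusion cells, 1.40% of those tested. By their leading probe sets, 1 of the 9 members (LGR5) rose and 2 (WNT5A and FZD2) fell there, where 0.795% of all probe sets rose and 0.600% fell. The members had been chosen with earlier results of these data known, so these shares are no test of the set. Without the block the same 8 arrays gave 0, with 270 at an unadjusted p under 0.05, and every call below for 4-OHT rests on the pairs. The members' median log2 change was -0.17 against -0.02 over all tested probe sets. In vector cells the same fit called 0 (0%; 760 at an unadjusted p under 0.05), members included. Of the 6 tested muscle lineage markers, MYOG, the regulator of terminal muscle differentiation, fell in fusion cells in that fit (-2.74 ± 0.25 SE, limma adjusted p = 0.00327) and the other 5 were not called. In replicate 1 of the fusion cells MYOG went the other way, from 13.4 to 53.0; the part of this in the members' changes was not tested.

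**Figure D1:**
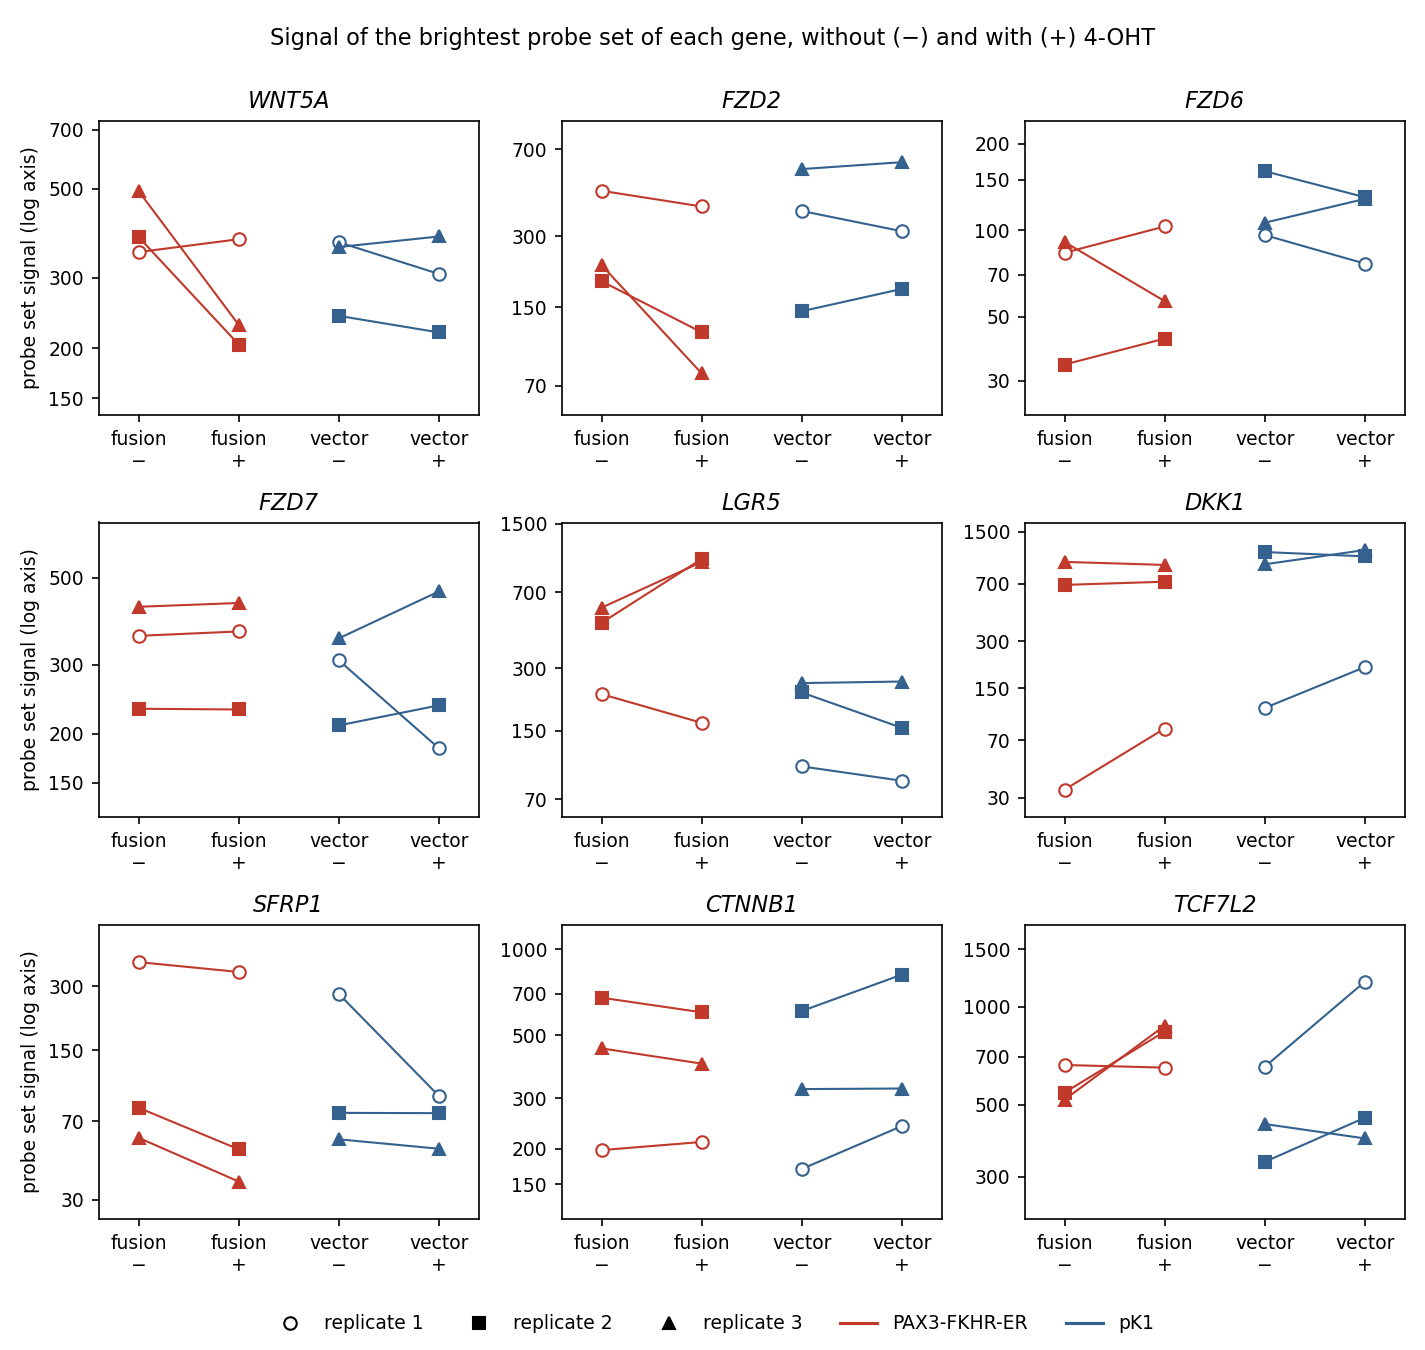
Signal of the leading probe set of each member on all 12 arrays, on a log axis, without and with 4-OHT, in fusion cells (red) and vector cells (blue). Points are single arrays, symbols give the replicate number and lines join the arrays of a pair; WNT5A and FZD2 go down and LGR5 goes up in the red pairs of replicates 2 and 3, and DKK1, SFRP1 and CTNNB1 set replicate 1 (open circles) apart from the others.

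WNT5A, the ligand, fell with 4-OHT in fusion cells in replicates 2 and 3, to signals near those of the lowest vector arrays. Its signal was 347, 379 and 493 in replicates 1, 2 and 3 of the fusion cells without 4-OHT and 374, 204 and 229 with it. The vector cells read 368, 241 and 358 without and 306, 219 and 379.9 with 4-OHT. So replicates 2 and 3 of the treated fusion cells lay under every untreated fusion array, while replicate 1 lay inside the untreated range, and the vector groups overlapped throughout. The ratio of with to without was 0.540 and 0.464 in the fusion pairs of replicates 2 and 3, 1.08 in replicate 1, and 0.834, 0.910 and 1.06 in the vector pairs.

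In the paired fit to replicates 2 and 3 the change of WNT5A was -0.95 ± 0.14 (log2, SE; limma adjusted p = 0.0144), from 436 ± 80.7 to 217 ± 17.2 (SD, n = 2). Over all 12 arrays it was -0.60 ± 0.29 SE from 406 ± 76.5 to 269 ± 91.7 (SD, n = 3), and limma's adjusted p was 1, or 0.651 with the pairs as a block. The second WNT5A probe set, dimmer, read 113, 107 and 91.8 without and 129, 41.6 and 46.4 with 4-OHT in fusion cells, and 73.4 to 103 in all 6 vector arrays. It moved the same way in the same pairs and missed the threshold (-0.94 ± 0.20 SE, limma adjusted p = 0.0682). In bulk RNA of this kind, fewer cells with a transcript and less of it per cell cannot be told apart. The call of the leading probe set was lost with no intensity trend (limma adjusted p = 0.0998) or no signal filter (0.0623). That probe set is of a type (s_at) that can also read transcripts of related genes.

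Among the receptors FZD2, a Frizzled that WNT5A can bind, was the one that fell. In fusion cells it read 466, 193 and 226 without 4-OHT and 400.3, 118 and 78.9 with it. In vector cells it read 383, 144 and 576 without and 315, 179.5 and 616 with 4-OHT. All 3 fusion pairs went down, the vector pair of replicate 1 did so as well, and the vector pairs of replicates 2 and 3 went up, while the groups overlapped because the arrays differed widely by replicate number. In the ratio of with to without the fusion pairs had 0.858, 0.609 and 0.349 and the vector pairs 0.821, 1.24 and 1.07.

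The paired fit to replicates 2 and 3 gave a change of FZD2 of -1.0 ± 0.18 SE (limma adjusted p = 0.0389), from 210.0 ± 23.3 to 98.3 ± 27.4 (SD, n = 2). Over 12 arrays the change was -0.74 ± 0.64 SE, with a limma adjusted p of 1, or 0.627 with the pairs as a block. With no intensity trend the call in replicates 2 and 3 was lost (limma adjusted p = 0.158), as it was with no signal filter (0.142). The vector cells of replicate 2, whose FZD2 was 144 and 179.5 against 576 and 616 in replicate 3, also had the lowest muscle markers, with CHRNA1, a subunit of the muscle acetylcholine receptor, at 344 and 246 against 1974 and 1950. The treated fusion cells of replicates 2 and 3 went the other way: FZD2 was lower still there, at 118 and 78.9, with CHRNA1 at 2044 and 1950. Whether FZD2 differs with the muscle state was not tested.

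FZD6 and FZD7, the other Frizzleds, showed no change with 4-OHT that passed. FZD6 read 83.5, 34.1 and 91.0 without and 103, 42.0 and 56.7 with 4-OHT in fusion cells, against 96.2, 160.5 and 106 without and 76.6, 130.3 and 128 with 4-OHT in vector cells. Every untreated fusion array lay below every untreated vector array, and with 4-OHT replicate 1 broke that order. The constructs differed without 4-OHT by -0.73 ± 0.36 SE over 12 arrays (limma adjusted p = 1) and by -1.0 ± 0.38 SE in replicates 2 and 3 (adjusted p = 0.477), and most of the latter lay in replicate 2, at -1.82 against -0.19 in replicate 3. For 4-OHT in fusion cells of replicates 2 and 3 the fit gave -0.17 ± 0.24 SE (limma adjusted p = 0.866), and over 12 arrays -0.03 ± 0.36 SE.

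FZD7 was nearly level in the fusion pairs, at 355, 232 and 422 without and 365, 230.5 and 431 with 4-OHT. Its ratios were 1.03, 0.996 and 1.02, and the paired fit gave 0.01 ± 0.13 SE (limma adjusted p = 0.990). In vector cells FZD7 read 308, 209.9 and 350.1 without and 184, 236 and 461 with 4-OHT. There the pair of replicate 1 went down and the others up, and the second FZD7 probe set did the same, with ratios of 0.538, 1.14 and 1.22. FZD7 probe sets of this type can also read transcripts of related genes.

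LGR5, a stem cell marker of the gut and elsewhere, was the receptor that rose. Its signal was 225, 499 and 590.2 in fusion cells without 4-OHT, and 164, 1015 and 981 with it. Vector cells read 101, 229.5 and 255 without and 85.9, 155 and 259 with 4-OHT. The treated fusion arrays of replicates 2 and 3 were the highest of all 12, and replicate 1 was the lowest of its group in each of the 4 groups. Ratios of with to without were 2.03 and 1.66 in the fusion pairs of replicates 2 and 3, 0.727 in replicate 1, and 0.852, 0.675 and 1.02 in the vector pairs.

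From 544 ± 64.6 to 998 ± 24.1 (SD, n = 2), the change of LGR5 in replicates 2 and 3 was 0.86 ± 0.16 SE in the paired fit (limma adjusted p = 0.0390). Over 12 arrays it was 0.43 ± 0.66 SE, with a limma adjusted p of 1, or 0.798 with the pairs as a block. Its second probe set read 117, 226 and 209 without and 105, 492 and 388 with 4-OHT in fusion cells, and 58.1 to 135 in vector cells. The change of that probe set, 0.96 ± 0.23 SE, missed the threshold (limma adjusted p = 0.0981). As for WNT5A and FZD2, the call of the leading probe set was lost with no intensity trend (limma adjusted p = 0.171) and with no signal filter (0.139).

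LGR5 was also the member that set the constructs apart. With 4-OHT in replicates 2 and 3 it was higher in fusion cells by 2.23 ± 0.22 SE (log2; limma adjusted p = 0.0385, and 0.0398 with no block), 1 of the 21 probe sets called there (0.158%). No other member passed in that comparison. The fusion over vector ratios with 4-OHT were 1.91, 6.55 and 3.78 in replicates 1, 2 and 3, and 1.40, 8.46 and 2.89 by the second probe set (limma adjusted p = 0.0938). Already without 4-OHT the label PAX3-FKHR-ER read higher than pK1 at every replicate number, with ratios of 2.24, 2.17 and 2.32, and 1.75, 1.86 and 1.72 by the second probe set, and this held in replicate 1 too. Over 12 arrays the difference with 4-OHT was 1.76 ± 0.66 SE (limma adjusted p = 1). The groups overlapped even so. With 4-OHT, replicate 1 of the fusion cells (164) lay under replicate 3 of the vector cells (259). Without 4-OHT, replicate 1 of the fusion cells (225) lay under replicates 2 and 3 of the vector cells (229.5 and 255). Without 4-OHT the difference was 1.12 ± 0.22 SE in replicates 2 and 3 (limma adjusted p = 0.306) and 1.09 ± 0.66 SE over 12 arrays (adjusted p = 1); 1 probe set was called in the former (0.00750%), and it belonged to no member. Arrays of different constructs are not known to be paired by number. The block in this comparison is the replicate number alone. It leaves out that arrays with and without 4-OHT of the same construct and number were correlated. The SE and p given here, for LGR5 and for MYOD1 below, may therefore be too small. The call with 4-OHT was lost with no intensity trend (limma adjusted p = 0.0600) and no signal filter (0.0706). MYOD1, a master regulator of the muscle lineage, differed in the same comparison (2.80 ± 0.29 SE, limma adjusted p = 0.0385), at 1912 and 1809 against 197 and 322, while in replicate 1 the fusion cells were the lower, at 1216 against 2098; its part in the difference of LGR5 was not tested.

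**Figure D2:**
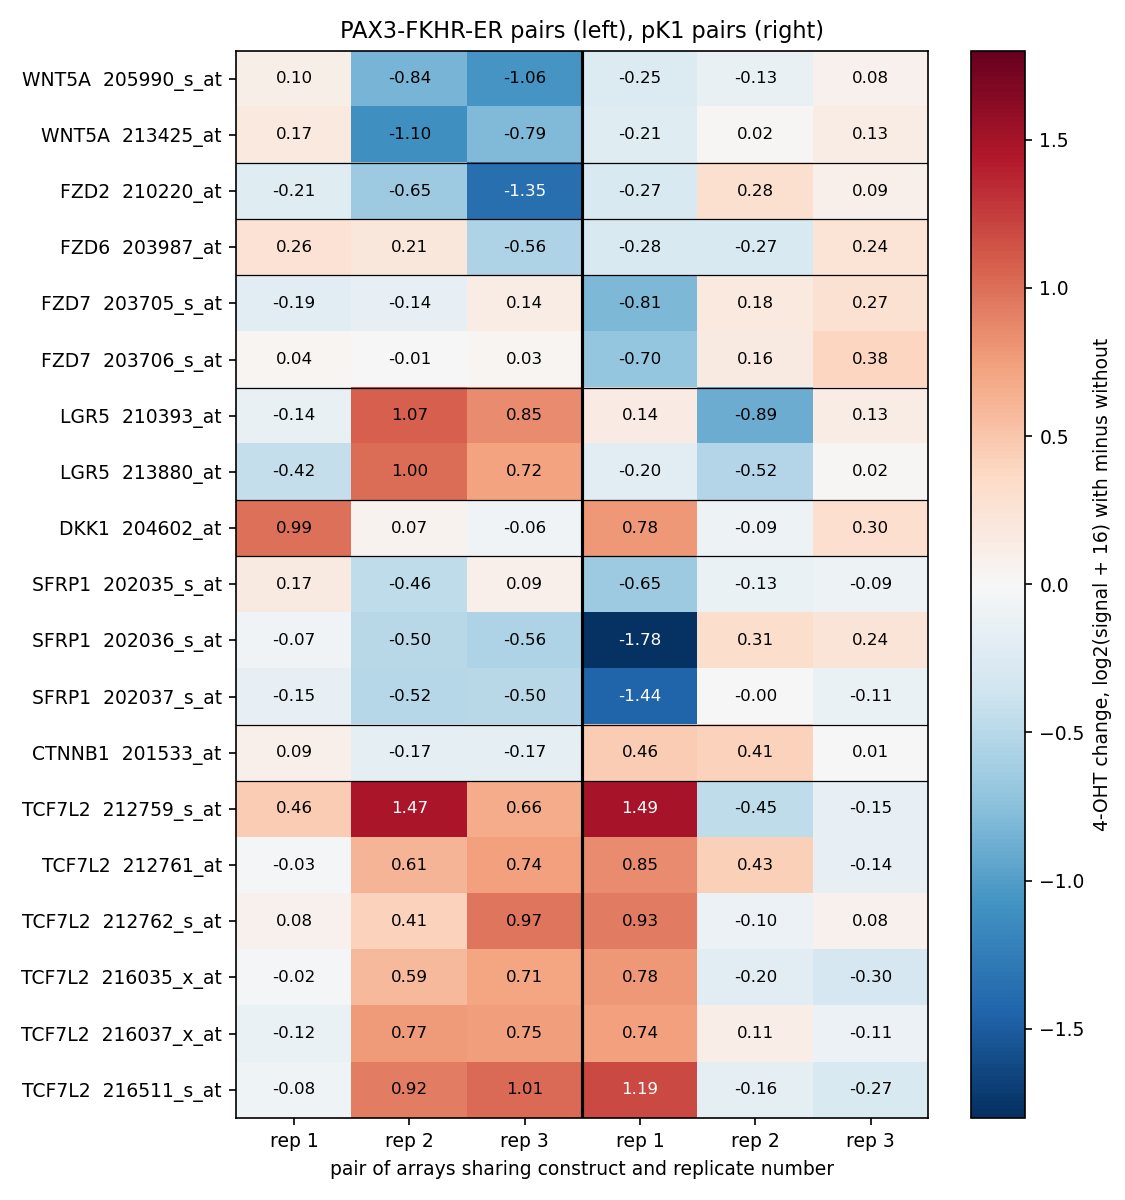
Change with 4-OHT of all 19 member probe sets in each pair of arrays, as log2(signal + 16) with minus without; red is higher and blue lower with 4-OHT, and the vertical line parts fusion pairs (left) from vector pairs (right). Both WNT5A probe sets are blue and both LGR5 probe sets and all 6 TCF7L2 probe sets red in fusion replicates 2 and 3, while in replicate 1 TCF7L2 is red and SFRP1 and FZD7 blue in the vector pair.

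The secreted inhibitors did not pass in any comparison. DKK1, which blocks the LRP co-receptors, read 33.8, 688 and 965 in fusion cells without 4-OHT and 83.1, 721 and 923 with it, and 112, 1116 and 932 without and 205, 1047 and 1149 with 4-OHT in vector cells. On the 4 arrays of replicate 1 it was 33.8 to 205, and on the other 8 it was 688 to 1149, so the replicate number, rather than construct or 4-OHT, parted its values with no overlap. Its fusion over vector ratios in replicates 1, 2 and 3 were 0.301, 0.617 and 1.04 without 4-OHT. With 4-OHT they were 0.405, 0.689 and 0.803, and neither difference passed. In replicates 2 and 3 the change with 4-OHT in fusion cells was 0.00 ± 0.13 SE (limma adjusted p = 0.998), from 827 ± 196 to 822 ± 143 (SD, n = 2), and over 12 arrays it was 0.33 ± 1.27 SE. Both pairs of replicate 1 went up, with ratios of 2.46 for fusion and 1.82 for vector cells, from low signals.

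SFRP1, a secreted decoy that carries a Frizzled-like domain, had the opposite layout. It read 389, 80.9 and 58.5 without and 349.6, 51.7 and 36.5 with 4-OHT in fusion cells, and 276, 76.6 and 57.6 without and 92.0, 76.3 and 52.0 with 4-OHT in vector cells. Of the replicate 1 arrays 3 were bright, at 276 to 389, and the vector array with 4-OHT was not. The other 8 arrays held 36.5 to 80.9. In fusion cells of replicates 2 and 3 the ratios were 0.639 and 0.624, and the paired fit gave -0.51 ± 0.21 SE (limma adjusted p = 0.380), with -0.53 ± 0.27 SE (adjusted p = 0.523) for the second probe set. Over 12 arrays the change was -0.39 ± 0.80 SE. The largest step was in the vector pair of replicate 1, with a ratio of 0.333 and 0.225 by the second probe set. The third, dim probe set read 13.7 to 52.8 and was not tested.

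CTNNB1, which encodes beta-catenin itself, was also read at lower signal in replicate 1. Fusion cells had 198, 677 and 449 without and 211, 602 and 397 with 4-OHT, and vector cells 169.5, 608 and 323 without and 239.8, 816 and 325 with 4-OHT. Replicate 2 was the highest in each group and the groups overlapped fully. The change in fusion cells of replicates 2 and 3 was -0.17 ± 0.14 SE (limma adjusted p = 0.714), or -0.08 ± 0.60 SE over 12 arrays, and that in vector cells 0.21 ± 0.14 SE (adjusted p = 0.883). Beta-catenin is controlled mostly as a protein, which these arrays do not read.

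TCF7L2, a TCF/LEF factor that takes beta-catenin to DNA, had 6 probe sets, all tested, and all 6 were higher with 4-OHT in the fusion pairs of replicates 2 and 3. Of these, 2 passed: the probe set 216511_s_at by 0.96 ± 0.14 SE (limma adjusted p = 0.0142) and 216037_x_at by 0.76 ± 0.14 SE (adjusted p = 0.0390). The leading probe set, 212761_at, had 0.67 ± 0.15 SE and missed the threshold (limma adjusted p = 0.0871), and so the gene is not counted among those that rose. The remaining 3 had 0.65 to 1.07, at adjusted p from 0.0699 to 0.0981. Probe sets of a gene share its transcripts and are not replicates of each other. The 2 that passed are of types (s_at and x_at) that can also read transcripts of related genes. The leading one is not of these types.

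By the leading probe set TCF7L2 read 662, 544 and 518 without and 649, 838 and 874 with 4-OHT in fusion cells. Vector cells read 653, 333 and 436 without and 1192, 455 and 393 with 4-OHT. In fusion cells replicates 2 and 3 with 4-OHT lay over every untreated array, and replicate 1 did not move. Its ratios of with to without were 0.981, 1.54 and 1.69 in fusion replicates 1, 2 and 3. In vector replicates 1, 2 and 3 they were 1.83, 1.37 and 0.903. The highest value of all was that of the vector array with 4-OHT of replicate 1. The probe set 216511_s_at was highest in fusion replicate 3 with 4-OHT, above that vector array, at 281, 191 and 243 without and 265, 374 and 507 with 4-OHT in fusion cells and 195, 132 and 199.6 without and 466, 116 and 163 with 4-OHT in vector cells. So the ratio of with to without was 1.96 and 2.09 in fusion replicates 2 and 3 and 2.39 in the vector pair of replicate 1, but 0.942 in fusion replicate 1 and 0.881 and 0.817 in vector replicates 2 and 3. Over 12 arrays the change of 216511_s_at in fusion cells was 0.62 ± 0.42 SE, with a limma adjusted p of 1, or 0.749 with the pairs as a block, and that of 216037_x_at was 0.47 ± 0.39 SE (adjusted p = 1). The call in replicates 2 and 3 was lost with no intensity trend (limma adjusted p = 0.0835) and no signal filter (0.0623), and that of 216037_x_at likewise (0.147 and 0.115).

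**Figure D3:**
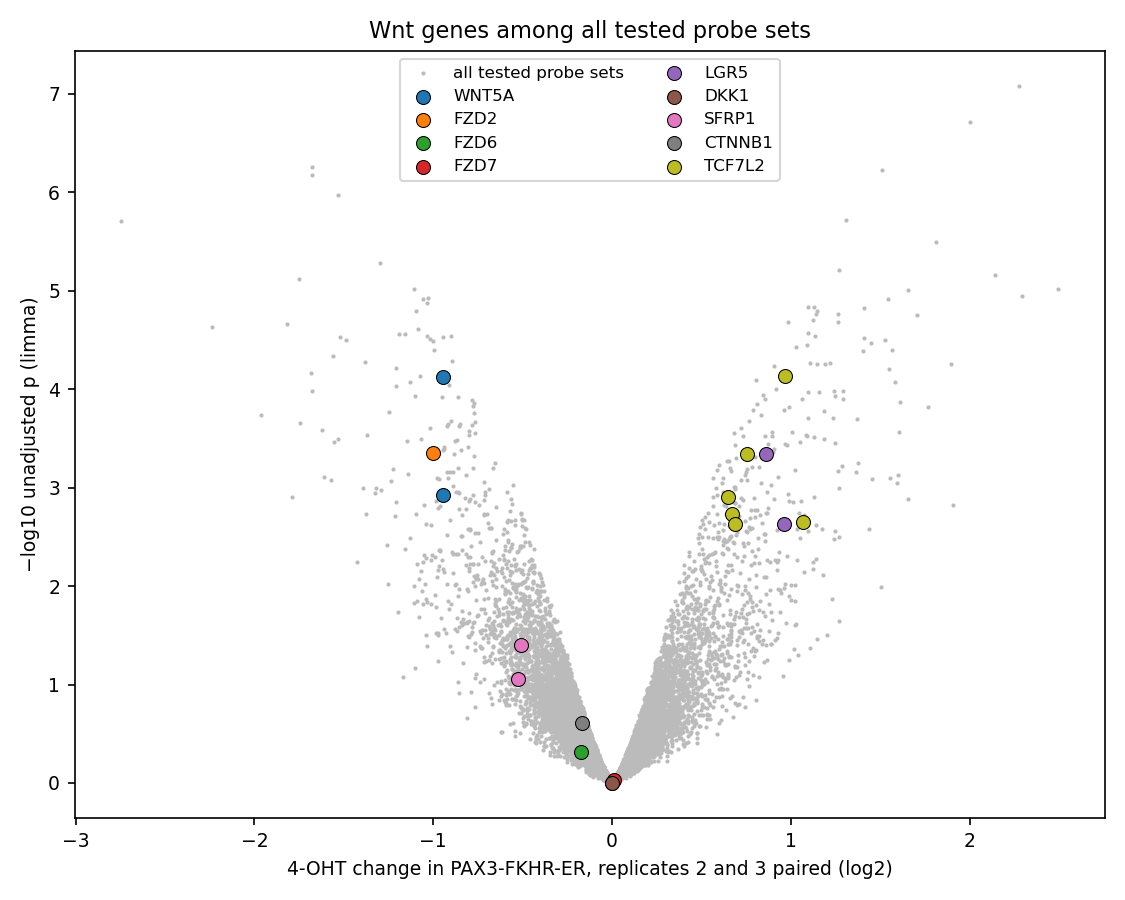
Change with 4-OHT in fusion cells (log2, x axis) against -log10 of limma's unadjusted p (y axis) for all 13329 tested probe sets, from the paired fit to replicates 2 and 3; grey points are all probe sets and coloured points the 18 tested member probe sets. WNT5A and FZD2 lie at the upper left, LGR5 and TCF7L2 at the upper right, and DKK1, FZD7, FZD6 and CTNNB1 near the foot.

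Whether the response differed between the constructs was tested directly. For the change in fusion cells minus that in vector cells, the paired fit to replicates 2 and 3 called 7 probe sets (0.0525%), and none was a member's. The nearest was TCF7L2 by 216511_s_at, at 1.18 ± 0.20 SE (limma adjusted p = 0.0869), a probe set named because it was called above. By its leading probe set TCF7L2 had 0.53 ± 0.22 SE (limma adjusted p = 0.476). LGR5 had 1.11 ± 0.22 SE (adjusted p = 0.151), WNT5A -0.93 ± 0.19 SE (0.155) and FZD2 -1.19 ± 0.26 SE (0.166). Over 12 arrays the members' adjusted p was 1, and 0.926 or more with the pairs as a block. The responses of these genes were thus called in fusion cells, not called in vector cells, and not shown to differ between them.

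Replicate 1 showed far larger changes of TCF7L2, SFRP1 and FZD7 in vector cells than in fusion cells. In its vector pair TCF7L2 went up by 0.74 to 1.49 on the log2 scale across 6 probe sets, SFRP1 down by its 2 tested probe sets (-1.44 and -1.78), and FZD7 down by both (-0.70 and -0.81), while in its fusion pair TCF7L2 lay between -0.12 and 0.46 and FZD7 between -0.19 and 0.04. WNT5A did not follow, at -0.25 in that vector pair and 0.10 in the fusion pair, nor did LGR5, at -0.20 and -0.42. The median change over all tested probe sets was -0.06 in the vector pair and 0.01 in the fusion pair of replicate 1. The SD of those changes was 0.443 in that vector pair, the widest of all pairs, against 0.295 in that fusion pair. Larger changes there were thus not particular to these genes. As given above, PAX3 and FOXO1 were lower in fusion than in vector cells on the untreated arrays of replicate 1, but not on the treated ones. LGR5 was higher in fusion cells on both, with fusion over vector ratios of 2.24 untreated and 1.91 treated. What sets replicate 1 apart was not tested.

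Few other genes of the pathway were called. Of 122 other Wnt genes listed, 91 are on the array and 61 were tested, and in the paired fit to replicates 2 and 3 of fusion cells 1 rose and 0 fell, with a median of -0.01 (-0.02 over all probe sets). The share called, 1 of 61, is near the 1.40% called among all probe sets and shows nothing particular to the pathway. The one that rose was JUN, a subunit of AP-1 and listed as a beta-catenin target. It was read by a probe set of a type (x_at) that can also read transcripts of related genes. Its signal was 309, 461 and 208 without and 336, 751 and 424 with 4-OHT in fusion cells, and 266, 489 and 140.1 without and 513, 534 and 139 with 4-OHT in vector cells. All 3 fusion pairs and the vector pairs of replicates 1 and 2 went up, and the groups overlapped. In replicates 2 and 3 its change was 0.83 ± 0.13 SE (limma adjusted p = 0.0239), against 0.59 ± 0.56 SE over 12 arrays (adjusted p = 1). The call was lost with no intensity trend (adjusted p = 0.135) or no signal filter (0.0844), and the difference from vector cells did not pass (0.77 ± 0.19 SE, adjusted p = 0.223). In vector cells 0 of the 61 were called.

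**Figure D4:**
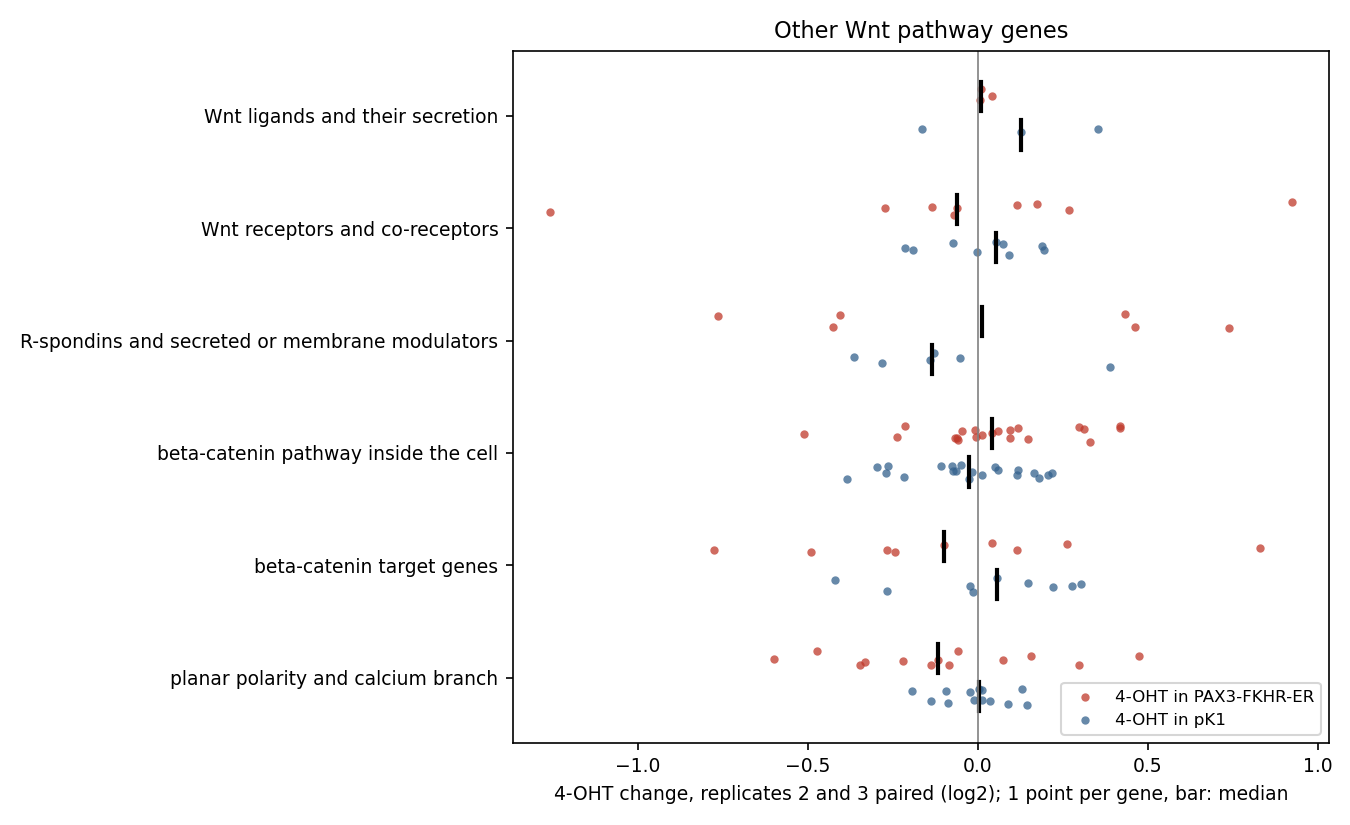
Change with 4-OHT (log2, paired fit to replicates 2 and 3) of the tested genes of 6 Wnt lists beside the members, 1 point per gene by its leading probe set, in fusion cells (red) and vector cells (blue); bars are list medians. The medians lie between -0.13 and 0.13, and JUN is the red point at 0.83 among the beta-catenin targets.

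By role, other ligands and their secretion had 3 tested genes of 13 on the array, none called, with a median of 0.01. WNT6 had 0.01 ± 0.13 SE, the ligand escort WLS 0.04 ± 0.14 SE and WNT16 0.01 ± 0.28 SE, and for WNT16 this joins a pair that went down (-0.44) and one that went up (0.45). Of 9 receptors and co-receptors tested, 0 were called; FZD4, RYK and FZD1, the 3 brightest, had -0.06, -0.07 and 0.17. LRP6, a Wnt co-receptor that DKK1 blocks, is named after its values were seen, because its change did not pass (-1.26 ± 0.32 SE, limma adjusted p = 0.128) although it was larger than those of the called members. Its signal was 172, 57.4 and 61.4 without and 163, 17.6 and 13.5 with 4-OHT in fusion cells, and 161, 16.4 and 10.8 without and 126, 11.9 and 15.0 with 4-OHT in vector cells. Replicates 2 and 3 of the fusion cells without 4-OHT lay above the other 6 arrays of those numbers, and the arrays of replicate 1 were the brightest in each group. The 6 secreted or membrane modulators tested, none of them an R-spondin, with GPC3, CER1 and SFRP4 the brightest (0.43, -0.43 and 0.46), had 0 called and a median of 0.01. Inside the cell, 21 components of the beta-catenin pathway had 0 called and a median of 0.04, with CSNK1A1, a kinase that marks beta-catenin for destruction, at -0.06, the corepressor CTBP1 at 0.09 and TCF7L1, a TCF factor that mainly represses, at 0.31.

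Of 9 tested target genes of beta-catenin, JUN was the one called, and the list's median was -0.10. MYC (-0.27 ± 0.13 SE) and CD44 (0.11 ± 0.12 SE), the other bright ones, did not pass, nor did cyclin D1 (CCND1, named after its values were seen) at -0.78 ± 0.17 SE (limma adjusted p = 0.0688). In the planar polarity and calcium branch, the one most tied to WNT5A, 13 genes were tested, 0 were called and the median was -0.12. The GTPases RAC1 (0.16), RHOA (-0.14) and CDC42 (0.07) were bright and did not pass. In the same fit to vector cells the 6 list medians ran from -0.13 to 0.13.

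Genes most like each member were taken over the 12 arrays, after the mean of each replicate number had been subtracted from log2(signal + 16); the arrays share pairs, and r is a description. For WNT5A they were ATP2A1, the calcium pump of fast muscle (r = 0.961), ZBTB18 (0.954) and H2AZ2 (0.953). FZD2 had RFTN1 (0.973), the receptor kinase AXL (0.967) and GRB10 (0.962). The nearest to FZD6 were TGDS (0.988), COLEC12 (0.981) and ALDH3A2 (0.973), and those to FZD7 were CDC73 (0.960), PRKD1 (0.950) and NUDT3 (0.920). LGR5 ran with BICD2 (0.962), NCAPD2 (0.955) and TENM3 (0.948). DKK1 had the loosest neighbours, RGP1 (0.873), FGFR2 (0.867) and MXRA7 (0.865). SFRP1 had SH3BP4 (0.951), SLC35D1 (0.948) and PCYOX1L (0.947), CTNNB1 had SMC3 (0.933), UAP1 (0.924) and POMP (0.915), and TCF7L2 had VAV3 (0.978), FMR1 (0.975) and DICER1 (0.967). None of these genes is on the Wnt lists used here.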

How the data were processed

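RNA of 12 RD samples was read on 1 Affymetrix U133A array each. The deposited intensity values, 1 linear signal per probe set, were made by the authors. The submitters' processing notes name GCOS and MAS5, and versions are not given in the sources used here. Scaling between arrays hides any change in total RNA per cell, and the number of arrays limits the precision. Of 22283 probe sets 68 were controls; of the other 22215, 19065 had 1 symbol, 1043 several and 2107 none. Signals were taken as log2(signal + 16), which understates changes of dim genes, and probe sets in the lowest 40% by mean signal (under 36.7) were left out, so that 13329 were tested. Group means were fitted with limma 3.58.1 in R 4.3.3 (eBayes with intensity trend, two-sided, Benjamini-Hochberg over all tested probe sets, 0.05), and checked on simulated data. Figures used matplotlib 3.10.9 in Python 3.11.15.

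The members, the lists and the fit to the 8 arrays of replicates 2 and 3 were chosen with earlier results of these data known. That fit leaves 2 residual degrees of freedom, so its spread is largely borrowed across probe sets. Named genes were all members, the listed Wnt genes past the threshold in any fit, the 3 brightest of each list, and the 3 genes most like each member; markers beside a result were named after their values were seen. Deviations from group means correlated between same-numbered arrays at 0.703 to 0.851 with and without 4-OHT and 0.152 to 0.685 between constructs, so the numbers were taken as pairs (by construct and number for 4-OHT, by number for constructs). Those means include replicate 1, which stood apart, and arrays of different number were not compared. The correlations therefore cannot show that the numbers mark true pairs. Fits between constructs do not model the tie between arrays with and without 4-OHT, so their SE and p may be too small. Promoter windows were matched by symbol to a RefSeq table, and the arrays' probe coordinates were not used here.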

Additional observations from a re-analysis of the deposited data

How the results depend on the processing

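Each result was refitted under 15 other settings and without each of the 12 arrays. Leaving out any 1 array gave 0 called probe sets in each comparison, and other pseudocounts, filters, scalings, the 2 groups alone, no intensity trend or the replicate block also gave 0. In replicates 2 and 3 with the replicate block, 4-OHT in fusion cells gave 186, 17 with no intensity trend, 37 with no filter, 536 with the 2 groups alone and 207 after quantile normalization, and 0 with no block. The difference of changes gave 7, and 18 after quantile normalization, but 0 with no trend, no filter or no block, and the 2 groups alone do not apply to it. Constructs without 4-OHT gave 1 with and 1 without the block, 1 with no trend and 2 with the 2 groups alone, and 0 with no filter or after quantile normalization. Constructs with 4-OHT gave 13 with no block, 21 with it, 2 with no trend, 4 with no filter, 98 with the 2 groups alone and 17 after quantile normalization. The calls of WNT5A, FZD2, LGR5, JUN and both TCF7L2 probe sets held after quantile normalization (limma adjusted p = 0.011, 0.0289, 0.0293, 0.0255, 0.0125 and 0.0414) and with the 2 groups alone, where the leading TCF7L2 probe set also passed (0.000979). The 2 groups alone leave the spread to fewer arrays still. The causes were not tested. No called member changed direction under these alternatives in the comparison where it was called. In vector cells no setting called any probe set. The small number of arrays, and signals near the filter for SFRP1, limit what can be seen.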
